A study of Mus musculus with 18 samples.

Results

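Retinoic acid, the active form of vitamin A, is made from retinol by stepwise oxidation and sensed in the nucleus. The 9 genes described here cover that route and were chosen by name from the 51912 genes counted: *Rdh10* and *Dhrs3*, which convert retinol to retinal and back, *Aldh1a1*, *Aldh1a2* and *Aldh1a3*, which make retinoic acid, *Cyp26b1* and *Crabp1*, which degrade and bind it, and the receptors *Rara* and *Rarb*. All 9 had the 10 counts over the 18 libraries that were required for testing.

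Retinol taken up from the blood or medium is oxidised to retinal by retinol dehydrogenases, and reductases such as DHRS3 return retinal to retinol. Retinaldehyde dehydrogenases of the ALDH1A family oxidise retinal to retinoic acid irreversibly, which makes them the committed step, and CYP26 enzymes clear the product by hydroxylation. Retinoic acid binds heterodimers of retinoic acid receptors (RAR) and retinoid X receptors (RXR) on DNA and turns on genes that include parts of its own route, such as *Rarb*, *Cyp26* genes and *Dhrs3*. In the developing brain the meninges are a well-known source of retinoic acid, made there mainly by ALDH1A2. Alcohol dehydrogenases and aldehyde dehydrogenases act on both retinoids and ethanol or its product acetaldehyde.

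The samples were primary cultures of astrocytes from the cortex of transgenic mice (Tg(Aldh1l1-EGFP/Rpl10a), line JD130Htz/J, B6;FVB, crossed to C57BL/6J and hemizygous for the tag), made from newborn (postnatal day 0) pups with equal numbers of male and female cortices. Every dish was grown in medium with serum for 14 d, replated for 6 d, held without serum for 24 h and then kept without serum for another 24 h with 50 mM ethanol or in control medium (0 mM), in sealed chambers. Ribosomes carrying the EGFP-tagged protein RPL10A were pulled down with antibodies to GFP (translating ribosome affinity purification, TRAP). This gave an IP fraction of RNA bound to tagged ribosomes. The input fraction beside it was RNA of the cleared lysate, the supernatant left after insoluble debris was spun down, taken before the pulldown. Libraries came from the IP fraction of 6 control and 6 ethanol dishes and from the input of replicates 4 to 6 of each treatment. All groups carried the transgene, which the *Aldh1l1* promoter drives, so only cells using that promoter carry tagged ribosomes. The labels do not say which dishes came from separate litters or cultures, and p-values then measure only the spread between dishes.

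The depth on genes was 74239854 to 132810705 read pairs. Levels are given as CPM, the count of a gene relative to the size of its library after TMM scaling. The astrocyte label held against its markers: the 11 astrocyte markers examined summed to 1579 to 1660 CPM in input and 2450 to 2629 CPM in IP, with 9 of 11 higher and 1 lower in IP, and *Aldh1l1* itself was 1.95 to 2.16 times higher in IP than in input of the same dish. Other cell types were present in the cultures. Microglia markers summed to 51.7 to 63.9 CPM in input and 8.29 to 11.4 CPM in IP, and markers of meningeal fibroblasts to 247 to 254 and 136 to 153.6 CPM, while the 6 endothelial markers, of which *Cldn5* was at 0 in all libraries, summed to 9.70 to 12.4 CPM. The remaining lists summed higher in IP than in input of the same treatment. Mural markers summed to 906.8 to 1376.9 CPM in input and 1072.7 to 1781.4 CPM in IP, most of it *Acta2*. Choroid plexus and ependymal markers summed to 391.2 to 423.4 and 425.2 to 494.3 CPM, most of it *Foxj1*. Neuronal markers summed to 103.04 to 114.56 and 124.19 to 144.58 CPM, and oligodendrocyte lineage markers to 37.03 to 40.38 and 48.31 to 57.05 CPM. In such bulk samples, fewer cells of a type and less RNA per cell cannot be told apart.

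*Aldh1a1* has close relatives in the genome, which bears on how its reads were counted. The same 60-base stretch of the coding sequence is shown for the 3 members of the family and for *Aldh1a7*, a close rodent paralog, with every base that differs from *Aldh1a1* in capitals (GRCm38, GENCODE M21).
Aldh1a1: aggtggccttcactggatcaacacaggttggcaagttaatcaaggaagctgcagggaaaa
Aldh1a7: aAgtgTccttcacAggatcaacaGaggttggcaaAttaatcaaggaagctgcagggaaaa
Aldh1a2: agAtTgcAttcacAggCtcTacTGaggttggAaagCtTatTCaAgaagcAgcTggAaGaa
Aldh1a3: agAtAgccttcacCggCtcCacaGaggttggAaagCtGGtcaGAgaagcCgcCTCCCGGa
The stretch runs from base 722 to 781 of the *Aldh1a1* coding sequence, and 5 of its 60 bases differ in *Aldh1a7*, 18 in *Aldh1a2* and 20 in *Aldh1a3*. Over the whole coding sequence the identity with *Aldh1a1* was 91.62% for *Aldh1a7*, 70.01% for *Aldh1a2* and 68.58% for *Aldh1a3*. Of all 50-base windows of the transcript 7.535% were shared letter for letter with *Aldh1a7*, and of all 100-base windows 0.05118%. No window of either length was shared with *Aldh1a2* or *Aldh1a3*. Pairs that fit *Aldh1a1* and *Aldh1a7* equally well were set aside by the authors' counting, so both genes may be undercounted and their split is less certain than that of the other members.

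Of the 7 members with a promoter listed, *Rarb* is the one whose promoter carries a retinoic acid response element by its letters. It is shown for that reason. The window is the 250 bases before one of the gene's starts in RefSeq (GRCm38.p6, chr14:16575477-16575726, minus strand, 5′ to 3′), with the 2 half-sites in capitals.
Rarb: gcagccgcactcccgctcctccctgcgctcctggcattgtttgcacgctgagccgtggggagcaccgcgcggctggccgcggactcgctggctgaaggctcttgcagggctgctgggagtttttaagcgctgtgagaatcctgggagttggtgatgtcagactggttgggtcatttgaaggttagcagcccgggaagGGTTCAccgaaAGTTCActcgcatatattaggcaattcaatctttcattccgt
The element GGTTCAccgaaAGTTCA lies 53 to 37 bases before the start and is a direct repeat with 5 bases between its half-sites (DR5). The search was made on both strands, with AGGTCA as the consensus half-site. Its variants AGTTCA (found here on the right), GGTTCA (found here on the left) and the frequent form GGGTCA were accepted as well. Such a DR5 was in 32 of 32851 RefSeq promoters (0.09741%) and in 1 of the 13 promoters listed for 7 of the members. Repeats with a spacer of 1 base (DR1, 0.2222% of all promoters) or of 2 bases (DR2, 0.2679%) were in none of the 13. The letters are a description and do not show that a receptor binds there.

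The 3 most abundant members per length of transcript were *Aldh1a1*, *Dhrs3* and *Rdh10*, in that order in all 4 groups. In control input, *Aldh1a1* was at 109.6 ± 2.96 CPM per kilobase of exon (SD, n = 3), *Dhrs3* at 53.5 ± 1.69 and *Rdh10* at 26.6 ± 0.513. The other members were far lower. *Aldh1a3* followed at 6.96 ± 0.102 and *Rara* at 6.03 in control input, and *Aldh1a2* was last at 0.272 ± 0.0111. *Cyp26b1*, *Rarb* and *Crabp1* lay between at 2.63, 2.06 and 1.92 CPM per kilobase, of which *Rarb* and *Crabp1* overlapped over their libraries.

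In control IP the order of the top members was the same, with *Aldh1a1* at 150.9 ± 6.38, *Dhrs3* at 47.7 ± 2.02 and *Rdh10* at 31.5 ± 0.911 CPM per kilobase (SD, n = 6). *Aldh1a3* dropped behind *Rara*, to 2.54 ± 0.317 CPM per kilobase, where it overlapped its neighbours *Rarb* and *Crabp1*. *Cyp26b1* and *Rarb* overlapped as well, at 2.84 and 2.68 CPM per kilobase. The place of *Rarb* and *Aldh1a3* depends on the length used, since with the longest transcript in place of all exons *Rarb* moved above *Cyp26b1* in every group and *Aldh1a3* above it in IP.

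**Figure D1:**
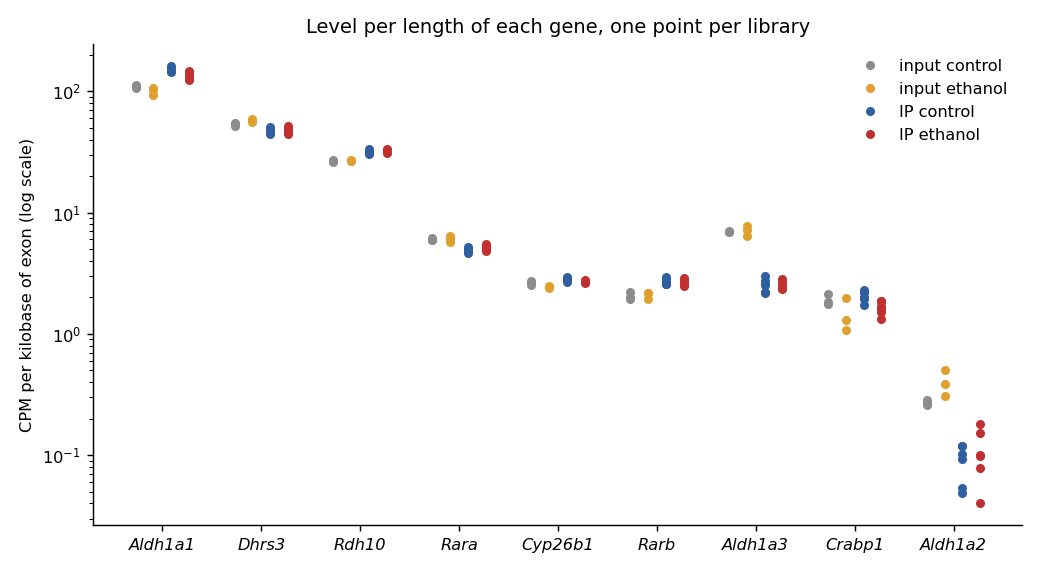
Level of each gene in CPM per kilobase of exon (log axis) with 1 point per library and the 4 groups side by side. *Aldh1a1*, *Dhrs3* and *Rdh10* lie above all other members in every library, and *Aldh1a2* lies below all others.

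Retinaldehyde dehydrogenase RNA was almost all *Aldh1a1*. Of the summed CPM per kilobase of the 3 *Aldh1a* members, *Aldh1a1* made up 93.8% ± 0.208 in control input (SD, n = 3), 93.0% ± 0.759 in ethanol input, 98.3% ± 0.242 in control IP (n = 6) and 98.0% ± 0.198 in ethanol IP. *Aldh1a3* made up 5.96% of the sum in control input and 1.66% in control IP. The share of *Aldh1a2*, the enzyme typical of meninges, was 0.233% in control input and 0.0575% in control IP.

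The IP vs. input comparison asks which of these mRNAs were enriched on the tagged ribosomes relative to the cleared lysate. The enzymes split: *Aldh1a1* and *Rdh10* were higher in IP, and *Aldh1a2*, *Aldh1a3* and *Dhrs3* were lower. Of the receptors, *Rarb* was higher and *Rara* lower. In all, 8 of 9 members passed an adjusted p of 0.05 in edgeR's quasi-likelihood test, 4 in each direction, beside 51.0% of all 24495 genes tested (25.2% higher and 25.8% lower). The groups did not overlap for 7 of the 9, beside 25.0% of all genes. The median log2 fold change was 0.13 over the members and -0.03 over all genes.

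*Aldh1a1*, the most abundant enzyme of the set, was at 546, 525 and 553 CPM in control input and at 457, 504 and 524.5 CPM in ethanol input (replicates 4 to 6 in each). In IP it ranged from 707 to 800 CPM with a median of 745 in control and from 611 to 721 with a median of 659 in ethanol libraries. All 12 IP libraries lay above all 6 input libraries. The IP vs. input log2 fold change of *Aldh1a1* was 0.44 (SE 0.0351, edgeR adjusted p = 3.15e-09), a level 1.36-fold that of input. Within the 6 dishes sequenced in both fractions the ratio was between 1.33 and 1.38, a narrow range below the 1.95 to 2.16 of *Aldh1l1*. *Aldh1a7* gave a ratio of 0.883 to 1.07 in the same dishes.

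*Aldh1a3*, the enzyme best known from the eye and olfactory tissues, went the other way. Its level was 32.5, 32.2 and 31.6 CPM in control input and 33.0, 36.0 and 29.6 CPM in ethanol input, against 10.0 to 13.8 CPM (median 11.9) in control IP and 10.8 to 13.0 CPM (median 12.02) in ethanol IP. The lowest input library was above the highest IP library. The log2 fold change was -1.46 (SE 0.0548, edgeR adjusted p = 2.77e-15), and input held 2.76 times the IP level.

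*Aldh1a2* was rare and lower still in IP. Its level was 0.639, 0.621 and 0.589 CPM in control input and 0.690, 0.868 and 1.15 CPM in ethanol input, and it ranged from 0.110 to 0.271 CPM in control IP and from 0.0912 to 0.410 CPM in ethanol IP. These levels rest on 52 to 88 read pairs per input library and 9 to 40 per IP library, so that counting error is a large part of their spread. The fractions did not overlap, and the log2 fold change was -1.76 (SE 0.193, edgeR adjusted p = 2.38e-12).

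The 2 dehydrogenases that interconvert retinol and retinal moved in opposite directions by small amounts. *Rdh10*, the main retinol dehydrogenase of the embryo, was at 109, 111 and 113 CPM in control input and 113, 111 and 111 CPM in ethanol input, and ranged from 127 to 138 CPM in control IP and from 129 to 138 CPM in ethanol IP. Every IP library was above every input library, a difference of 0.26 on the log2 scale (SE 0.0202, edgeR adjusted p = 1.17e-18). *Dhrs3*, which turns retinal back into retinol, was at 158, 150.9 and 160 CPM in control input and 172, 162 and 165.1 CPM in ethanol input, against 129 to 147.2 CPM in control IP and 131 to 150.5 CPM in ethanol IP. The lowest input library (150.9 CPM) was just above the highest IP library (150.5 CPM), and *Dhrs3* was lower in IP by a log2 fold change of -0.21 (SE 0.0253, edgeR adjusted p = 4.68e-09).

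*Cyp26b1*, the main retinoic acid hydroxylase of the brain, and *Crabp1*, the cytosolic carrier that holds retinoic acid, differed little or not beyond their error between fractions. *Cyp26b1* was at 14.3, 13.4 and 14.5 CPM in control input and 14.4 to 15.7 CPM in control IP, and at 12.9, 13.0 and 13.2 CPM in ethanol input and 14.0 to 14.9 CPM in ethanol IP. Its fractions overlapped, and the log2 fold change was 0.13 (SE 0.0341, edgeR adjusted p = 0.000805). In control libraries alone it was 0.10 (adjusted p = 0.0945). *Crabp1* ranged from 0.859 to 1.72 CPM in input and from 1.06 to 1.85 CPM in IP, and its log2 fold change of 0.14 (95% interval -0.07 to 0.35) did not pass the test (edgeR adjusted p = 0.27).

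The receptors parted. *Rara*, the broadly expressed receptor, was at 25.8, 27.1 and 26.1 CPM in control input and 27.7, 26.4 and 24.8 CPM in ethanol input, all above the 20.4 to 22.6 CPM of control IP and the 21.1 to 24.2 CPM of ethanol IP, for a log2 fold change of -0.25 (SE 0.0305, edgeR adjusted p = 3.52e-11). *Rarb*, a classical target of retinoic acid through its response element, was at 10.6, 10.3 and 11.7 CPM in control input and 11.4, 11.5 and 10.2 CPM in ethanol input. It ranged from 13.5 to 15.4 CPM in control IP and from 13.1 to 15.1 CPM in ethanol IP, above all input libraries, for a log2 fold change of 0.37 (SE 0.0396, edgeR adjusted p = 8.32e-13). *Rarb* shares 1793 exon bases with *Top2b* on the opposite strand. The counts used took no account of strand, which sets pairs in that overlap aside. They gave *Rarb* 20303 pairs over all libraries, while counts made by strand gave 20076 on its own strand and 236 on the opposite strand.

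The ratios held dish by dish. IP exceeded input in 6 of 6 dishes for *Aldh1a1*, *Rdh10* and *Rarb* and was below it in 6 of 6 for *Aldh1a2*, *Aldh1a3*, *Dhrs3* and *Rara*. The ratio was 0.132 to 0.418 for *Aldh1a2*, 0.357 to 0.438 for *Aldh1a3*, 0.798 to 0.892 for *Dhrs3* and 0.804 to 0.866 for *Rara*. *Cyp26b1* was above 1 in 5 of 6 dishes and *Crabp1* in 4 of 6, with a range of 0.814 to 1.76. With the dish as a block, the same 8 members passed the test in the same direction.

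**Figure D2:**
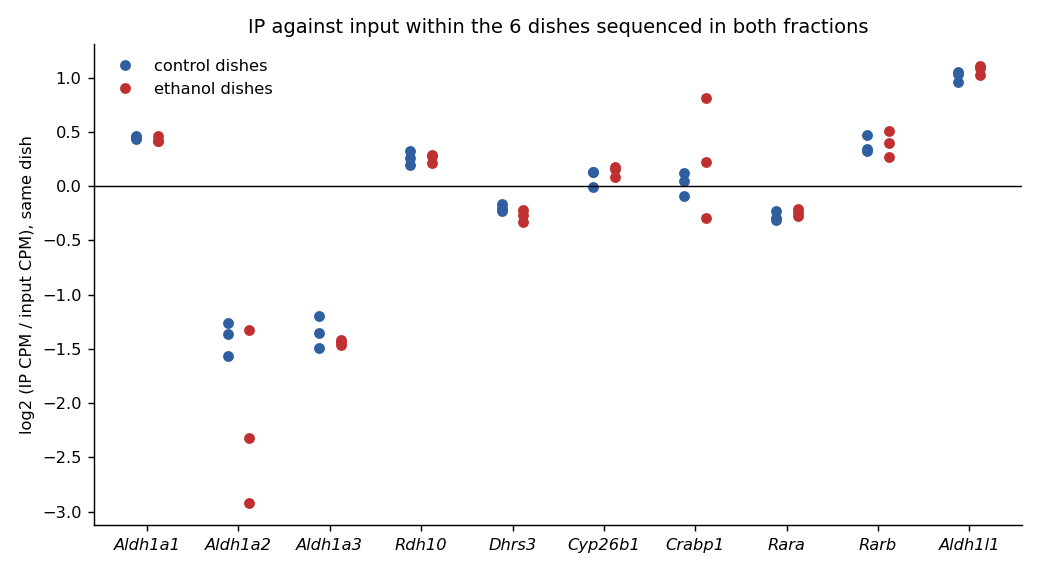
log2 of IP over input CPM in the same dish (y axis) for each member and for *Aldh1l1*, with 1 point per dish (blue control, red ethanol). *Aldh1a2* and *Aldh1a3* lie far below 0 in all 6 dishes. *Aldh1a1*, *Rdh10* and *Rarb* lie above it but below *Aldh1l1*, the gene whose promoter drives the tag.

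Markers of some other cell types were lower in IP, as *Aldh1a2* and *Aldh1a3* were, and those of others higher. Of the meningeal fibroblast markers 6 of 10 were lower in IP and 3 higher. *Col1a1* was at 141 to 145.6 CPM in input and 41.4 to 51.0 CPM in IP. *Col1a2* went the other way, at 41.8 to 49.2 CPM in input and 50.2 to 58.7 CPM in IP. None of the 10 was at 0 throughout a group, and *Lum* stood at 0.193 CPM or less in every library. Of the microglia markers 6 of 7 were lower and none higher, by edgeR, by DESeq2 and at an unadjusted p below 0.05. Of the mural markers 4 of 7 were higher and 1 lower, and of the neuronal markers 4 of 8 were higher and 1 lower. Choroid plexus and ependymal markers were lower in 3 of 6 cases and higher in 1, oligodendrocyte lineage markers lower in 4 of 7 and higher in 2, and endothelial markers lower in 3 of 5 and higher in 1. Their part in the levels of *Aldh1a2*, *Aldh1a3*, *Dhrs3* and *Rara* was not tested.

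The ethanol comparison within IP asks whether 24 h of 50 mM ethanol changed what was bound to tagged ribosomes in astrocytes. *Aldh1a1* fell by 10.8% and *Crabp1* fell by 20.2%, and no member rose. These 2 of 9 members stand beside 21.4% of all genes that passed the test in IP (11.9% higher and 9.48% lower), so the share of members called was near the background. The groups overlapped for all 9 members, beside 9.96% of all genes whose groups did not overlap. The median log2 fold change of the members was 0.01, as was that of all genes. By edgeR 0 members rose, against 1 at an unadjusted p below 0.05 (*Rara*) and 0 by DESeq2.

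*Aldh1a1* fell in IP with a log2 fold change of -0.17 (SE 0.0327, edgeR adjusted p = 0.000612). The 95% interval of the change ran from -14.9% to -6.51%. Of the 6 ethanol libraries, 5 lay below every control library, and ethanol replicate 6, at 721 CPM, lay above control replicate 1. Without any 1 library, the adjusted p stayed between 9.4e-08 and 0.00474. Mural markers summed to 1647 to 1781 CPM in control IP and 1073 to 1273 CPM in ethanol IP, most of it *Acta2* (1520 to 1655 and 948 to 1147 CPM), while 2 of the 7 fell, 1 rose and 4 did not pass the test. The astrocyte markers summed to 2450 to 2530 and 2543 to 2629 CPM, while 4 of the 11 rose, 1 fell and 6 did not pass the test. *Aldh1l1* was at 367 to 395 CPM in control IP and 342 to 383 CPM in ethanol IP. The part of the mural and astrocyte markers in the fall of *Aldh1a1* was not tested.

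*Crabp1* ranged from 1.38 to 1.85 CPM (median 1.69) in control IP and from 1.06 to 1.51 CPM in ethanol IP, on 100 to 159 read pairs per library. Its log2 fold change was -0.33 (SE 0.111, edgeR adjusted p = 0.0264), and the groups overlapped. The call was lost without control replicate 2, 3 or 6 or ethanol replicate 1 or 4 (adjusted p from 0.0526 to 0.0809). It was also lost in replicates 4 to 6 alone (0.334), in replicates 1 to 3 alone (0.0886) and after trends of GC content and length were removed (0.085).

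The other members did not pass the test in IP. *Rara* came closest, with 20.4 to 22.6 CPM in control and 21.1 to 24.2 CPM in ethanol libraries, a log2 fold change of 0.09 (95% interval 0.01 to 0.16) and an adjusted p of 0.0961 in edgeR. *Cyp26b1* gave -0.07 (-0.15 to 0.01, adjusted p = 0.257), and passed with -0.11 (adjusted p = 0.0354) once trends of GC content and length were removed. *Rdh10* gave 0.05 (-0.00 to 0.10), *Dhrs3* 0.01 (-0.05 to 0.07), *Rarb* 0.01 (-0.08 to 0.09) and *Aldh1a3* 0.03 (-0.11 to 0.17). For *Aldh1a2* the interval of -0.32 to 0.88 around 0.28 was too wide to tell a rise from a fall.

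In input, which reads the RNA of the cleared lysate, *Aldh1a1* fell by 8.75% and *Dhrs3* rose by 5.94%. These were the 2 of 9 members that passed the test, beside 15.0% of all genes (7.21% higher and 7.78% lower). The groups did not overlap for *Aldh1a1*, *Aldh1a2*, *Dhrs3* and *Cyp26b1*, beside 27.1% of all genes in this 3 against 3 comparison. The median log2 fold change was 0.01 over the members and -0.00 over all genes.

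The *Aldh1a1* change in input had a log2 fold change of -0.13 (SE 0.0329, edgeR adjusted p = 0.00486). Its highest ethanol library and lowest control library differed by less than 1 CPM (524.5 and 524.9). DESeq2 did not call it (adjusted p = 0.144), nor did edgeR with a stricter filter on low counts (0.215). Without input ethanol 4 the change was -0.07 (adjusted p = 0.0159), and over the 6 fits that left out 1 library the adjusted p reached 0.0459. *Dhrs3* rose from 150.9 to 160 CPM in control to 162 to 172 CPM in ethanol libraries, a log2 fold change of 0.08 (SE 0.0235, edgeR adjusted p = 0.0046), and this call was lost without input control 5 (0.186) or input ethanol 4 (0.0968). Microglia markers summed to 51.7 to 53.4 CPM in control and 54.1 to 63.9 CPM in ethanol input, with 2 of 7 higher, and their part in the rise of *Dhrs3* was not tested.

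*Aldh1a2* and *Crabp1* had the largest changes in input and did not pass the test. *Aldh1a2* was at 0.690 to 1.15 CPM in ethanol and 0.589 to 0.639 CPM in control input, a log2 fold change of 0.54 (95% interval 0.08 to 0.99, edgeR adjusted p = 0.107), and passed only without input ethanol 4 (0.0409). Of the meningeal fibroblast markers 0 of 10 passed the test for ethanol in input by edgeR or DESeq2, against 1 at an unadjusted p below 0.05. *Crabp1* was at 1.03, 1.57 and 0.859 CPM in ethanol input against 1.43, 1.47 and 1.72 CPM in control input, and ethanol replicate 5 lay inside the control range. Its log2 fold change was -0.41 (-0.75 to -0.07, adjusted p = 0.0983), and -0.70 without that library (adjusted p = 0.00728). *Cyp26b1* gave -0.12 (-0.23 to -0.00, adjusted p = 0.192). *Aldh1a3*, *Rdh10*, *Rara* and *Rarb* lay between -0.00 and 0.03.

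**Figure D3:**
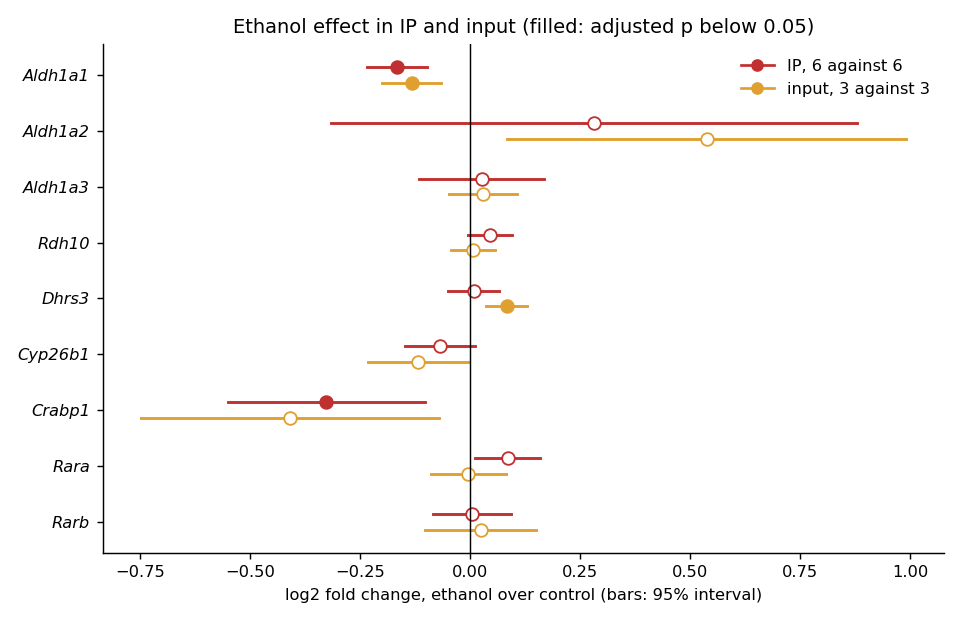
log2 fold change of ethanol over control with its 95% interval for each member in IP (red, 6 against 6) and input (orange, 3 against 3), filled where the adjusted p is below 0.05. *Aldh1a1* is below 0 and filled in both fractions, *Crabp1* is filled in IP and *Dhrs3* in input.

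**Figure D4:**
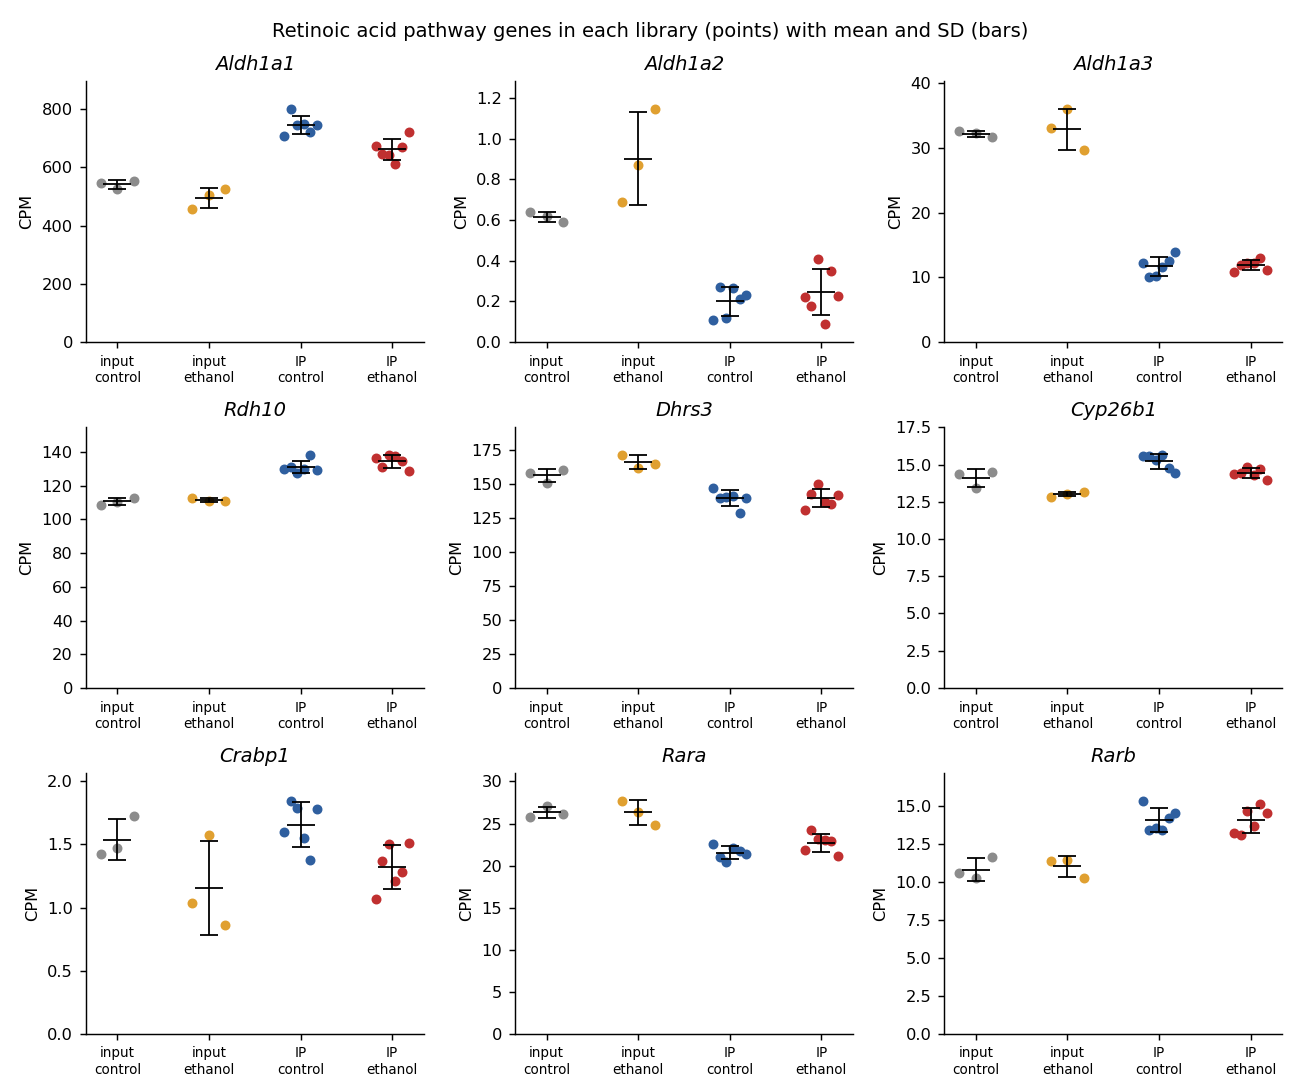
CPM of each member in every library (points), with the mean and SD of each group (bars), on axes that start at 0. Differences between IP and input of *Aldh1a1* and *Aldh1a3* are larger than those between ethanol and control, and the ethanol libraries of *Aldh1a1* lie mostly below the controls of the same fraction.

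A call in one fraction and not in the other does not show that the fractions differ, and the test of that difference called none of the members. For *Dhrs3* the ethanol effect in IP minus that in input was -0.09 (95% interval -0.18 to 0.01), for *Crabp1* 0.07 (-0.35 to 0.49), for *Aldh1a1* -0.04 (-0.19 to 0.11) and for *Rara* 0.08 (-0.04 to 0.20), all on the log2 scale. With edgeR 0 of 9 members and 0.0% of all genes passed, with 0 members at an unadjusted p below 0.05 and 0 members by DESeq2. With the dish as a block over the 12 libraries of shared dishes, 0.416% of all genes and 0 members passed.

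Around the 9 members, 62 further genes of retinoid uptake, conversion, binding, signalling and response were listed, of which 56 were tested and 35 had a mean of at least 1 CPM. In IP vs. input 19 were higher and 13 lower. With ethanol 11 rose and 7 fell in IP and 4 rose and 8 fell in input. As shares of those tested these were 57.1%, 32.1% and 21.4%, beside the 51.0%, 21.4% and 15.0% of all genes.

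Genes of uptake and transport were called in IP vs. input in 7 of 13 cases, 4 higher and 3 lower. *Ttr*, a carrier of thyroxine and of retinol with its binding protein and an abundant product of choroid plexus, was far lower in IP (log2 fold change -2.91, SE 0.112, edgeR adjusted p = 3.14e-13), at 23.7 to 38.5 CPM in input and 2.83 to 6.14 CPM in IP. *Bco2*, a carotenoid-cleaving enzyme, was higher in IP (0.53, SE 0.0652). With ethanol, *Lrp2*, an endocytic receptor that takes up many carrier-bound vitamins, fell in IP by 0.23 (SE 0.0585, adjusted p = 0.0175) and in input by 0.20 (SE 0.0266, adjusted p = 8.17e-12) on the log2 scale.

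Among the other oxidoreductases 15 of 19 were tested. Among those at 1 CPM or more that passed the test, *Aldh1a7* had the largest ethanol decrease in both fractions. It fell from 6.93 to 8.66 CPM in control IP to 5.35 to 6.13 CPM in ethanol IP, with no overlap and a log2 fold change of -0.42 (SE 0.057, edgeR adjusted p = 3.28e-08). In input it fell from 7.44 to 8.38 CPM to 5.62 to 6.55 CPM (-0.34 on the log2 scale, SE 0.0801, adjusted p = 0.000491). The fall of *Aldh1a1* was -0.17 in IP and -0.13 in input on the same scale. Whether the falls of the 2 genes differ was not tested, and the letters they share leave the split of some reads open to error. *Rdh13*, a mitochondrial retinol dehydrogenase, fell in input (-0.18, SE 0.0594, adjusted p = 0.0243), a call lost with DESeq2 (0.0582) and without any of 4 of the 6 input libraries (adjusted p up to 0.276). The classical alcohol dehydrogenases were nearly silent: *Adh1* was at 0.207 CPM or less and *Adh7* at 1.10 CPM or less in every library. *Adh5*, the broadly expressed class III enzyme, was at 155.2 to 157.6 CPM in control input and 147.4 to 150.8 CPM in ethanol input. In IP it was at 185.6 to 200.1 CPM in control and 178.1 to 187.9 CPM in ethanol libraries. These 3 genes were named after their values were seen.

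Of the 4 further genes that bind or degrade retinoic acid, *Fabp5*, a fatty acid carrier that also binds retinoic acid, was lower in IP (-0.93, SE 0.0306). With ethanol *Fabp5* went from 19.5 to 22.7 CPM to 16.4 to 18.5 CPM in IP, without overlap, a log2 fold change of -0.26 (SE 0.0394, edgeR adjusted p = 5.83e-07). In input *Fabp5* was at 38.2 to 39.5 CPM in control and 33.2 to 37.3 CPM in ethanol libraries, also without overlap.

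Receptors and coregulators were called in 1 direction, with 7 of 11 higher and 0 lower with ethanol in IP and 2 of 11 higher and 0 lower in input. Of all genes 11.9% were higher and 9.48% lower in IP, and 7.21% higher and 7.78% lower in input. DESeq2 gave the same counts, and 0 were lower at an unadjusted p below 0.05 in either fraction. The median log2 fold change of the list was 0.11 in IP and 0.03 in input, beside 0.01 and -0.00 over all genes. *Rxra*, the partner of the RARs on DNA, rose from 53.1 to 58.9 CPM to 63.0 to 67.6 CPM in IP and from 63.4 to 66.0 CPM to 68.2 to 73.2 CPM in input, with no overlap in either fraction. Its log2 fold change was 0.23 in IP (SE 0.0285, edgeR adjusted p = 4.96e-09) and 0.14 in input (SE 0.0294, adjusted p = 5.33e-05). *Nr2f1*, a nuclear receptor of cortical patterning, rose in IP by 0.16 (SE 0.0297, adjusted p = 2.75e-05). *Rarg*, the remaining RAR, named after its values were seen, gave 0.02 in IP and 0.00 in input and did not pass the test.

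Genes known to respond to retinoic acid showed no common direction. Of the 13 tested, 2 rose and 1 fell with ethanol in IP, and 2 rose and 3 fell in input (1 by DESeq2). These shares of 23.1% and 38.5% stand beside 21.4% and 15.0% of all genes. *Rarres1*, a retinoic acid receptor responder, was much lower in IP than in input (-2.05, SE 0.034), and with ethanol rose in IP from 8.31 to 9.11 CPM to 9.03 to 11.5 CPM (0.24, SE 0.0524, edgeR adjusted p = 0.000424) and in input from 36.6 to 37.8 CPM to 39.9 to 42.0 CPM (0.15, SE 0.0367, adjusted p = 0.0011). The IP call of *Rarres1* was lost in replicates 4 to 6 alone (0.399). *Nrip1*, a corepressor induced by retinoic acid, rose in input by 0.12 (SE 0.0393, adjusted p = 0.0188), a call lost without any of 4 of the 6 input libraries. *Rarres2*, the chemokine chemerin, and *Nav2*, a neuron navigator, were higher in IP, by 0.70 (SE 0.0454) and 0.40 (SE 0.0375).

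Across the 12 IP libraries, the gene whose log2 CPM ran most like that of *Aldh1a1* was *Gm29157* (Pearson r = 0.963), followed by *Nol10* (0.960), among 13292 genes at 1 CPM or more. For *Dhrs3* it was *Traf7* (0.961), for *Crabp1* *Xab2* (0.951), for *Cyp26b1* *Mrps31* (0.915), for *Rara* *Zfp687* (0.912), for *Rdh10* *CT009718.3* (0.906), for *Aldh1a3* *Pdik1l* (0.844) and for *Rarb* *Gm26578* (0.837). These libraries share the fraction, the treatment contrast and their preparation, so each r describes likeness over 12 points and no more.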

How the data were processed

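RNA of the IP fraction (12 libraries) and the input fraction (6 libraries) was sequenced as paired reads after rRNA depletion. Trimmomatic and STAR (GRCm38) were used by the authors for trimming, alignment and counting, and they deposited raw counts of read pairs per gene, unstranded, without normalization or pooling. Versions were not given in the sources used here. Only pairs mapped to a single place were counted. Pairs mapped to several places made up 2.95% to 4.77% of a library, and ambiguous pairs 5.37% to 5.66%.

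CPM (TMM library sizes) and tests were computed here from the deposited counts for 24495 genes with at least 10 counts over the 18 libraries, with edgeR 4.0.16 in R 4.3.3 (estimateDisp, robust glmQLFit, glmQLFTest, Benjamini-Hochberg over all genes, threshold 0.05). The SE is the absolute log2 fold change divided by the square root of F, and intervals are 95%. The fractions were compared in all 18 libraries with treatment as a covariate, ethanol within each fraction, and the difference between fractions as an interaction. DESeq2 1.42.0 was an alternative, as were other filters and scalings, a block, subsets of the replicates and leaving out each library. The scripts were tested on simulated data. Libraries of a group differed by more than sampling noise (36 pairs, chi-square per degree of freedom of at least 3.87), so none was counted as a copy. Equal numbers do not pair control with ethanol dishes, while IP and input of 1 number and treatment come from the same dish by their labels. The correlation of their deviations was 0.0509 to 0.0811 in control and 0.0191 to 0.153 in ethanol dishes. For IP and input of different numbers it was -0.0527 to 0.0445 and -0.104 to 0.0867, so in ethanol dishes the ranges overlap.

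Gene positions, exon lengths and coding sequences came from GENCODE M21, and promoters from RefSeq. Promoter entries were matched by symbol for 7 of 9 members, while *Aldh1a3* and *Rdh10* had none and were not searched. The 9 members and all gene lists were chosen with earlier results of these data known. Beside the members, the pathway genes named by rule are the 3 largest increases and decreases in each comparison, at 1 CPM or more and an adjusted p below 0.05. *Rarg*, *Adh1*, *Adh5* and *Adh7* were named outside this rule, after their values were seen. Likeness was the Pearson correlation of log2 CPM (prior count 2).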

Additional observations from a re-analysis of the deposited data

Results flagged for a closer look

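*Rdh10* in control IP had 1 library far from the others. Replicate 5 was at 138 CPM, while the other 5 libraries lay between 127 and 131 CPM, and the gap took 0.652 of the range, above Dixon's 95% limit for 6 samples. It was the only one of the 18 groups of 6 IP libraries examined that passed this limit, and chance passes about 1 in 20. The highest ethanol IP library was also at 138 CPM.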

How the results depend on the processing

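IP vs. input calls of the members held under all alternatives except that of *Cyp26b1*, given above. Ethanol calls of small changes were less stable. In IP, 2911 genes rose and 2322 fell over 12 libraries, 1824 rose in replicates 4 to 6, and 1623 rose and 1372 fell in replicates 1 to 3, where fewer libraries were tested. In each of these subsets 1 member was called lower (*Aldh1a1*), and leaving out 1 library gave 1 to 2. In input, 0 members were called lower with DESeq2 or the stricter filter (filterByExpr). Leaving out 1 input library gave 1 to 2 lower and 0 to 1 higher. For the difference between fractions, DESeq2 called 2 genes higher, the dish block 94 higher and 8 lower, and leaving out 1 library gave 0 to 1 higher, the 1 without IP ethanol 3. The cause of these differences was not tested.

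Direction turned for the following values, none of which passed the test in any setting. In IP, *Dhrs3* was -0.00051 with DESeq2, -0.00058 with RLE size factors, -0.0017 with filterByExpr and -0.0070 in replicates 1 to 3. *Rarb* was -0.0035 with DESeq2 and RLE size factors, -0.00056 with at least 1 count, -0.0046 with filterByExpr, -0.0033 without GC and length trends and -0.039 in replicates 1 to 3. In replicates 4 to 6, *Aldh1a2* was -0.16 and *Aldh1a3* -0.063. *Rara* in input was 0.0049 with total counts. With the dish block the difference between fractions was 0.00055 for *Aldh1a1* and 0.028 for *Rarb*. Without 1 library, ethanol in IP ranged from -0.021 to 0.071 for *Aldh1a3*, -0.022 to 0.026 for *Dhrs3* and -0.017 to 0.027 for *Rarb*. In input it ranged from -0.040 to 0.094 for *Aldh1a3*, -0.0059 to 0.020 for *Rdh10*, -0.040 to 0.031 for *Rara* and -0.014 to 0.078 for *Rarb*. The difference between fractions ranged from -0.082 to 0.054 for *Aldh1a3*, -0.095 to 0.36 for *Crabp1* and -0.086 to 0.0082 for *Rarb*.

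Among the pathway genes, *Nrip1* in input lost its call without GC and length trends (0.0821). With total counts in place of TMM, control input *Aldh1a3* was at 32.8 and *Rdh10* at 113.1 CPM, and ethanol input *Rdh10* at 114.4 and *Cyp26b1* at 13.4 CPM. Control and ethanol dishes share only a replicate number: same-numbered libraries deviated together with r from -0.104 to 0.221 in IP and 0.0195 to 0.0657 in input. With that number as a replicate block 3236 genes rose and 2546 fell in IP, 1847 rose and 1982 fell in input, and no member changed its call. With the dish as a block 5839 genes were higher and 5820 lower in IP vs. input. At 9 to 40 read pairs per IP library, depth limits *Aldh1a2*.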
